A study of Homo sapiens with 22 samples.

Results

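The glucocorticoid receptor (GR, gene NR3C1) is held in a ligand-binding state by the HSP90 chaperone machine, and 8 genes of that machine were followed here: the cytosolic HSP90 genes HSP90AA1 and HSP90AB1, the co-chaperones STIP1, PTGES3 and BAG1, and the immunophilins FKBP5, FKBP4 and PPID. They were chosen by name, and each had a row among the 20668 gene symbols of every RNA-seq sample. The samples came from MDA-MB-231, a human triple-negative breast cancer (TNBC) line, kept for 3 days without phenol red and with 5% serum stripped of hormones by charcoal, so that little steroid reached the cells. There were 5 groups with 2 biological replicates each: vehicle, dexamethasone (Dex, a synthetic glucocorticoid, 100 nM) for 2 h or 4 h, and Compound A (CpdA, a non-steroidal selective GR modulator, 10 μM) for 2 h or 4 h. All groups therefore shared 1 cell line and the hormone-poor medium, and none carried a genetic change made for the study. No time point is on the labels of the vehicle samples, while the study's supplementary table named its vehicle columns for 2 h and 4 h. Time and replicate cannot be told apart in the vehicle group, and both vehicle samples served as reference for every treatment. The GR, AP1 and p65 binding experiments of the series were not analysed here.

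HSP90 is an ATP-driven chaperone that receives the receptor from HSP70. STIP1 (HOP) bridges HSP70 and HSP90 during that transfer, and PTGES3 (p23) binds and stabilises the mature complex. BAG1 is a nucleotide exchange factor of HSP70. FKBP5 (FKBP51), FKBP4 (FKBP52) and PPID (cyclophilin 40) compete for the same docking site on HSP90. FKBP4 links the receptor to dynein and nuclear transport, whereas FKBP5 lowers the affinity of the receptor for hormone, and as a textbook target of GR itself it forms a short negative feedback loop. The comparisons ask how each ligand changed the transcript level of these partners of its own receptor.

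Levels are RPKM, reads scaled by transcript length and by the mapped reads of the sample, as the authors deposited them, and can be compared between genes as levels per length. Changes are differences of log2(RPKM + 0.1) with the standard error (SE) of a limma fit over all 10 samples. A gene was called when its adjusted p, corrected for the 12713 genes that reached 0.5 RPKM in 2 or more samples, was under 0.05, and the words rose and fell are used for called genes. All 8 genes passed that filter. Read depth, known only relative to the shallowest sample (a vehicle sample), was 1.01 for the other vehicle sample and 1.06 to 1.21 for the treated ones. The duplicates of a group had a Spearman correlation of 0.995 to 0.999 across genes. Vimentin (VIM, 1267 to 1464 RPKM), AXL (212 to 264) and CAV1 (284 to 389) marked the line as mesenchymal. ESR1 and PGR, the oestrogen and progesterone receptors, stayed at or under 0.005 RPKM. ERBB2 (15.9 to 21.6 RPKM) and EPCAM (8.02 to 10.6 RPKM) were detected although they had been listed as low markers of this line. Markers of leukocytes and liver (PTPRC, CD3E, ALB) did not exceed 0.063 RPKM.

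With vehicle, the chaperones themselves were among the most abundant transcripts of the cells and FKBP5 was the scarcest of the 8 genes. HSP90AB1 led with a mean level of 517 RPKM, followed by HSP90AA1 at 246, STIP1 at 79.0, PTGES3 at 48.7, FKBP4 at 24.2, BAG1 at 20.5 and PPID at 16.5 RPKM. FKBP5 stood last at 6.50 RPKM, the 43.3rd percentile of the genes kept, against the 99.7th for HSP90AB1. The duplicates of no neighbouring pair in this order overlapped. After 2 h of Dex FKBP5 had reached the level of STIP1, and the duplicates of FKBP5 (mean 74.2 RPKM) and STIP1 (mean 74.7 RPKM) overlapped, the one pair of neighbours in any group that did. After 4 h of Dex it stood behind the HSP90 genes alone. With CpdA the order was that of vehicle at both times.

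**Figure D1:**
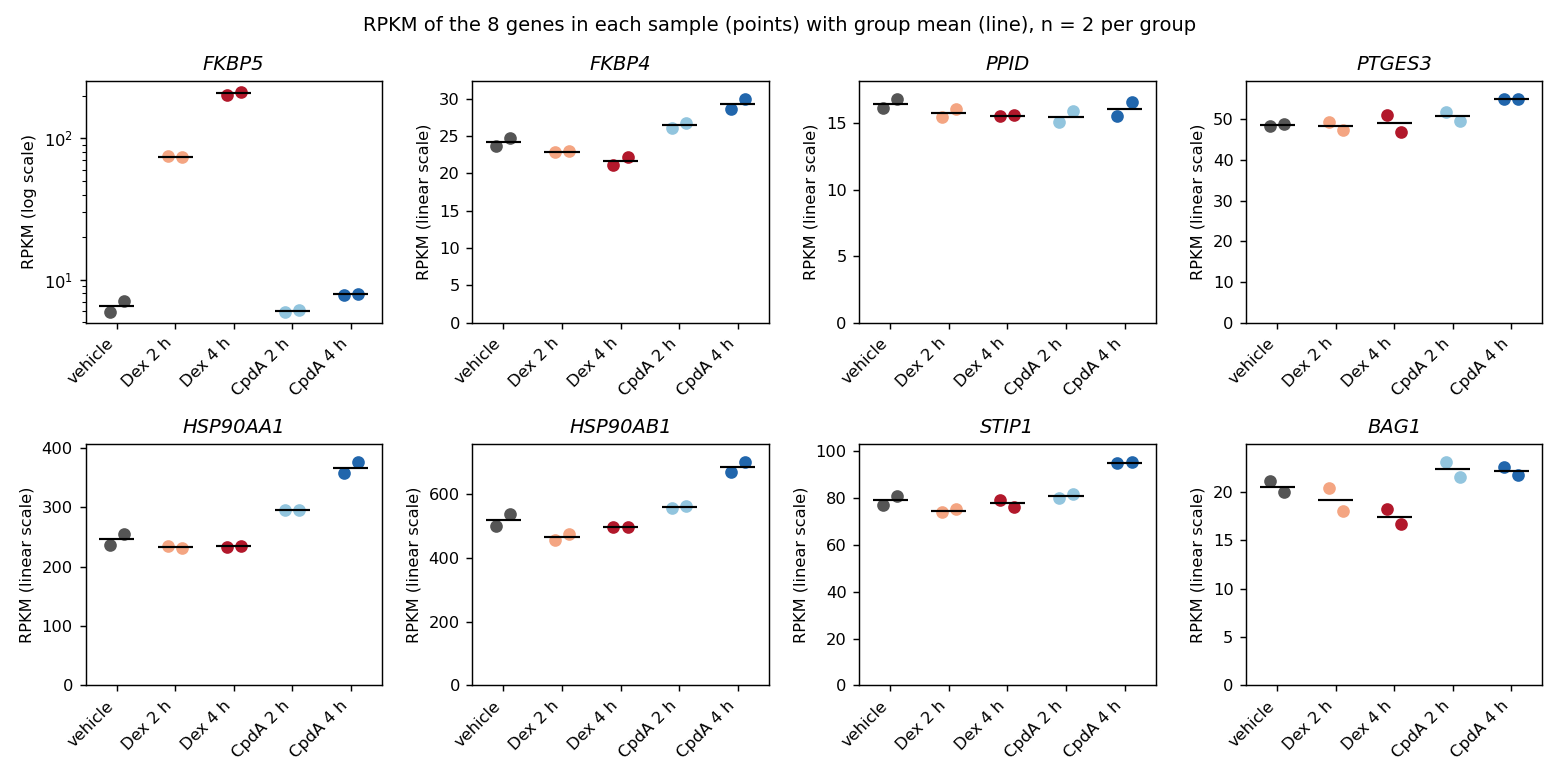
RPKM of the 8 genes in each of the 10 samples (points, 2 per group) with the group mean (line); the axis for FKBP5 is logarithmic and the other axes are linear from 0. FKBP5 stands apart in the 4 Dex samples, between 73.4 and 212 RPKM, and HSP90AA1, HSP90AB1 and STIP1 are highest in the CpdA 4 h samples.

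FKBP5 was the 1 gene of the 8 that Dex changed by more than 2-fold. Its level was 5.94 and 7.06 RPKM in the vehicle samples, 75.0 and 73.4 RPKM after 2 h of Dex, and 203 and 212 RPKM after 4 h. The 3 groups did not overlap, and the duplicates lay close together beside the distance between groups. FKBP5 rose 11.3-fold at 2 h (log2 fold change 3.50, SE 0.071, adjusted p = 6.1e-09, limma) and 31.5-fold at 4 h (4.98, SE 0.071, adjusted p = 1.1e-09, limma). It ranked 11th among all genes by log2 fold change at 2 h and 5th at 4 h. The rise continued between the times, with a log2 difference of 1.48 between 4 h and 2 h (SE 0.071, adjusted p = 2.1e-05, limma).

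With CpdA the level of FKBP5 stayed within 5.97 and 7.96 RPKM. The values were 5.97 and 6.08 RPKM at 2 h and 7.81 and 7.96 RPKM at 4 h. Both 2 h samples lay between the vehicle samples, and both 4 h samples lay above them. The log2 fold change at 2 h was −0.10 (95% confidence interval −0.26 to 0.06, adjusted p = 0.47, limma). At 4 h FKBP5 passed the threshold with a log2 fold change of 0.28 (SE 0.071, adjusted p = 0.023, limma), a rise of 1.21-fold. That call is weak. It was lost without vehicle replicate 1, the lower of the vehicle samples (log2 fold change 0.16, adjusted p = 0.068, limma), without CpdA 4 h replicate 1 (adjusted p = 0.095) or replicate 2 (0.12), with no filter (0.060) and with only the 4 samples of the contrast (0.080). At 2 h the change without vehicle replicate 1 was −0.23 and called lower (adjusted p = 0.028, limma). The vehicle samples differed by 0.25 on the log2 scale for FKBP5, against at most 0.11 in size for the other 7 genes.

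The gene record of FKBP5 (GRCh37, GENCODE) spans chr6:35541362-35696360 on the minus strand. A palindromic glucocorticoid response element was searched as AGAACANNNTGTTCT, exact and on both strands, in each of the 8 genes with 10000 bases on either side. FKBP5 held the one match, in an intron, with its centre 126 kb downstream of the annotated start. The site is chr6:35569859-35569873, shown here with 40 bases on either side in the direction of transcription because it is the sole exact match among the 8 genes. Capitals mark the paired inverted repeats.

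FKBP5 intron, chr6:35569819-35569913: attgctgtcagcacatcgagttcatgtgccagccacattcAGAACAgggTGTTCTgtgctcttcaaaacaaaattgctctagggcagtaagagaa

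Such a match is rare. The genome held 565, or 0.0198 per 100 kb, and 253 of 20163 protein-coding genes (1.25%) had one within their record. The match is a description of sequence, was searched for after the expression values were known, and says nothing of whether GR was bound there in these cells. The other 7 genes had no such letters in their records or flanks, which leaves shorter or imperfect elements uncounted.

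Beyond FKBP5, Dex moved the other 7 genes little. At 2 h 1 of the 8 genes was called higher (FKBP5), against 4.49% of all genes tested, and 0 were called lower, against 5.82%. At an unadjusted p under 0.05 in the same limma fit, 1 gene was lower, HSP90AB1. Its level was 455 and 473 RPKM at 2 h against 498 and 537 RPKM with vehicle, and the groups did not overlap. The log2 fold change was −0.16 (SE 0.050) with an adjusted p of 0.095 in limma, and it was called lower with quantile normalization (−0.22, adjusted p = 0.047) and with the replicate number as a block (−0.16, adjusted p = 0.032). The other 6 genes had log2 fold changes between −0.10 and −0.01.

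At 4 h of Dex 1 of the 8 genes was called higher, against 9.26% of all genes, and 2 were called lower, FKBP4 and BAG1, against 18.2%. FKBP4, the immunophilin that promotes nuclear transport of the receptor, was at 21.1 and 22.2 RPKM against 23.7 and 24.7 RPKM with vehicle. Its duplicates lay below both vehicle samples, and the log2 fold change was −0.16 (SE 0.045, adjusted p = 0.029, limma). BAG1 was at 18.2 and 16.6 RPKM against 21.1 and 19.9 RPKM, again without overlap, with a log2 fold change of −0.24 (SE 0.072, adjusted p = 0.038, limma). Both calls are weak. When the samples were scaled to a common median, FKBP4 had −0.09 (adjusted p = 0.20, limma) and BAG1 −0.17 (adjusted p = 0.15, limma). The FKBP4 call was also lost without vehicle replicate 2, Dex 2 h replicate 2, Dex 4 h replicate 1 or either CpdA 2 h sample (adjusted p 0.050 to 0.13, limma), and the BAG1 call without either vehicle sample, Dex 4 h replicate 2 or either CpdA 4 h sample (0.059 to 0.17). The same scaling moved the calls over all genes from 1177 higher and 2310 lower to 1600 higher and 1604 lower. The HSP90 genes, STIP1, PTGES3 and PPID were not called at 4 h, with log2 fold changes between −0.08 and 0.01 and 95% confidence intervals that lay within −0.20 and 0.12.

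With CpdA the HSP90 genes rose most, and FKBP5, FKBP4, STIP1 and PTGES3 rose by smaller amounts of 1.13-fold to 1.21-fold at 4 h. At 2 h 1 of the 8 genes was called higher, HSP90AA1, against 1.89% of all genes, and 0 were called lower, against 4.29%. At an unadjusted p under 0.05 in limma 2 genes were higher, HSP90AA1 and FKBP4, and 0 were lower. At 4 h 6 of the 8 genes were called higher, against 6.76% of all genes, and 0 were called lower, against 13.8%; the counts at an unadjusted p under 0.05 were the same. The median log2 fold change of the 8 genes at 4 h was 0.27, and that of all genes tested was −0.037. Under a common median per sample the calls over all genes were 295 higher and 367 lower at 2 h in place of 240 and 546, and 1386 and 1098 at 4 h in place of 860 and 1749, whereas the number of members called was the same at both times. By limma with a fold change over 2 added to the threshold, 0 of the 8 genes were called with CpdA and 1, FKBP5, with Dex at either time. Such calls made up 2.01% of all genes at 2 h and 3.78% at 4 h with Dex, and 0.488% and 0.889% with CpdA.

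HSP90AA1, the stress-inducible cytosolic HSP90, was the only member called at 2 h of CpdA and had the largest change at both times. Its level was 237 and 255 RPKM with vehicle, 296 and 295 RPKM after 2 h of CpdA, and 357 and 377 RPKM after 4 h. The groups stepped up without overlap. The log2 fold change was 0.26 at 2 h (SE 0.047, adjusted p = 0.013, limma) and 0.57 at 4 h (SE 0.047, adjusted p = 8.8e-05, limma), the latter a rise of 1.49-fold. Without either of the CpdA 2 h samples the 2 h change was 0.26 and no longer called (adjusted p = 0.11 and 0.10, limma).

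HSP90AB1, the constitutive paralog and the most abundant of the 8, was called at 4 h and not at 2 h. No test compared the timing of the genes. HSP90AB1 stood at 557 and 560.2 RPKM at 2 h and at 668 and 701 RPKM at 4 h. The vehicle samples had 498 and 537 RPKM. All 4 CpdA samples lay above both vehicle samples. The log2 fold change at 2 h was 0.11 (95% confidence interval −0.0022 to 0.22, adjusted p = 0.26, limma), and at 4 h HSP90AB1 rose 1.32-fold (0.40, SE 0.050, adjusted p = 6.9e-04, limma).

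STIP1, which feeds clients from HSP70 to HSP90, had 77.0 and 81.1 RPKM with vehicle, 80.1 and 81.9 RPKM at 2 h, and 94.8 and 95.6 RPKM at 4 h of CpdA. The 2 h values overlapped those of vehicle and the 4 h values lay well above them. STIP1 rose at 4 h by 0.27 on the log2 scale (SE 0.040, adjusted p = 0.0018, limma). PTGES3 went from 48.5 and 48.9 RPKM to 55.0 and 55.0 RPKM at 4 h, a log2 fold change of 0.18 (SE 0.048, adjusted p = 0.032, limma). That call was lost when any of 6 single samples was left out, the vehicle and CpdA samples, with adjusted p from 0.052 to 0.15 in limma.

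Among the immunophilins, FKBP4 had 26.1 and 26.7 RPKM after 2 h and 28.6 and 30.0 RPKM after 4 h of CpdA, against 23.7 and 24.7 RPKM with vehicle. Each group lay above the one before it. FKBP4 rose at 4 h by 0.27 on the log2 scale (SE 0.045, adjusted p = 0.0030, limma), and its 2 h change of 0.13 was not called (adjusted p = 0.15, limma). PPID, which shares the HSP90 docking site, was not called in any comparison. It ranged from 15.1 to 16.8 RPKM over the 10 samples, and its log2 fold change at 4 h of CpdA was −0.04 (95% confidence interval −0.15 to 0.08). BAG1 had 22.6 and 21.7 RPKM at 4 h against 21.1 and 19.9 RPKM with vehicle, a log2 fold change of 0.11 that was not called (95% confidence interval −0.05 to 0.27).

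**Figure D2:**
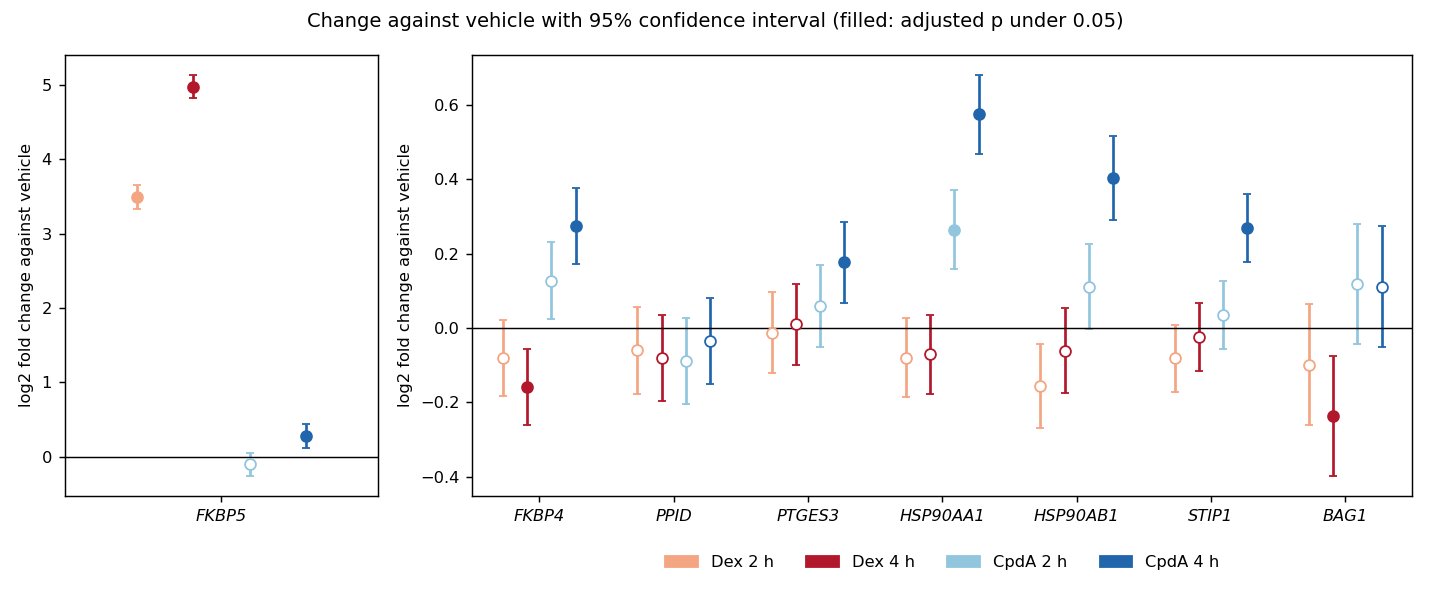
Log2 fold change against vehicle of the 8 genes for the 4 treatments (limma), with 95% confidence intervals; filled points have an adjusted p under 0.05, and FKBP5 has its own axis. FKBP5 stands at 3.50 and 4.98 with Dex, while HSP90AA1, HSP90AB1, STIP1, FKBP4 and PTGES3 are filled above 0 at CpdA 4 h and PPID is filled nowhere.

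The other protein-coding records in GRCh37 are HSP90AA1 at chr14:102547079-102606036 and PPID at chr4:159630279-159644548, PTGES3 at chr12:57057125-57082192 and BAG1 at chr9:33247818-33264718 on the minus strand, and HSP90AB1 at chr6:44213903-44221625, STIP1 at chr11:63952744-63972015 and FKBP4 at chr12:2904136-2914589 on the plus strand. The heat shock element, the sequence bound by heat shock factors, was searched as GAANNTTCNNGAA and its other strand TTCNNGAANNTTC, exact, in each gene record and the 1000 bases upstream of it. The search followed the expression results. FKBP4, PTGES3 and BAG1 held none, and FKBP5, PPID, HSP90AA1, HSP90AB1 and STIP1 held between 2 and 3 matches each, of which those of PPID overlap each other. The motif is common, with 45094 matches in the genome or 1.58 per 100 kb. Within 100 bases upstream of an annotated transcript start it is rare: 173 of 20163 protein-coding genes (0.858%) had one there, and HSP90AA1 and HSP90AB1 were the 2 of the 8 genes that did. These upstream windows are shown, on the strand of the gene in GRCh37, with the 3 units of the element in capitals.

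HSP90AA1, chr14:102553417-102553509, minus strand: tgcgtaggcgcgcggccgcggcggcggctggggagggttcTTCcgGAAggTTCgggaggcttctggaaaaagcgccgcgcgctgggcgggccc

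HSP90AB1, chr6:44215475-44215567, plus strand: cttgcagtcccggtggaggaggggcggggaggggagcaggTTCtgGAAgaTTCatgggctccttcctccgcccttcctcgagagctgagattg

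In both genes the centre of the element lay 82 bases upstream of the nearest annotated transcript start, and both stretches are intronic to longer annotated transcripts. HSP90AB1 carried a further element 29 bases upstream of that start, TTCtgGAAgcTTC at chr6:44215568-44215580. STIP1, which rose at 4 h, had its matches in exons, the nearest being TTCcgGAAcaTTC at chr11:63952899-63952911, and PPID, which was called nowhere, had an intronic match TTCtgGAAatTTC at chr4:159644131-159644143. FKBP4 and PTGES3 also rose at 4 h and held no exact element. RefSeq promoter sequences (GRCh38.p14, 250 bases before to 50 after the start) were available for the other members besides FKBP4. The first listed for each gene was scanned. For HSP90AA1 and HSP90AB1 it belonged to another start, with its upstream bases at chr14:102606087-102606336 and chr6:44213681-44213930 in GRCh37. It therefore did not cover the elements shown above. The 7 promoters scanned held no exact heat shock element, which 0.49% of 35093 promoters had. Those scanned for HSPA1A, HSPH1 and DNAJB1, described below, held none either. The promoter of HSPA6, also described below and scanned in the same way, did hold an exact element, TTCgcGAAagTTC. Of the members scanned, PTGES3 held one with a mismatch, GAAggaTCgcGAA, where 6.24% of promoters had one with at most 1 mismatch. HSPA1A (GAAtaTTCccGAc) and HSPA6 also held elements with 1 mismatch.

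The ligands were then set against each other at the same time, with the caveat that Dex was given at 100 nM and CpdA at 10 μM. At 2 h 1 of the 8 genes was higher with Dex than with CpdA, against 7.53% of all genes, and 3 were lower, against 6.18%. At 4 h 1 was higher, against 15.4%, and 6 were lower, against 18%, so that 7 of the 8 genes were called where 33.4% of all genes were. FKBP5 was the 1 member past a fold of 2, as were 2.3% of all genes at 2 h and 4.34% at 4 h. The gene that was higher was FKBP5 at both times, by 3.60 at 2 h and 4.70 at 4 h on the log2 scale (SE 0.071 each, adjusted p = 1.1e-08 and 1.7e-09, limma). The 2 Dex samples at 4 h held 203 and 212 RPKM of FKBP5 and the 2 CpdA samples 7.81 and 7.96 RPKM.

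The genes lower with Dex than with CpdA at 2 h were HSP90AA1 (log2 difference −0.34, SE 0.047, adjusted p = 0.0010, limma), HSP90AB1 (−0.27, adjusted p = 0.0066, limma) and FKBP4 (−0.21, adjusted p = 0.015, limma). At 4 h these 3 differed by −0.65, −0.46 and −0.43 (adjusted p at most 1.1e-04, limma), joined by BAG1 (−0.35, adjusted p = 0.0051), STIP1 (−0.29, adjusted p = 4.9e-04) and PTGES3 (−0.17, adjusted p = 0.026) in the same fit. The PTGES3 difference was −0.11 without Dex 4 h replicate 2 (adjusted p = 0.085, limma), and its call was also lost without either CpdA 4 h sample (0.11 and 0.12), with a common median (0.059), without the variance trend (0.054) and with only the 4 samples of the contrast (0.10). For PPID the difference at 4 h was −0.04 (95% confidence interval −0.16 to 0.07). BAG1, a HSP70 exchange factor, was at 18.2 and 16.6 RPKM with Dex and 22.6 and 21.7 RPKM with CpdA at 4 h, without overlap. Of the 2 h differences, that of HSP90AA1 held with any one sample left out, and those of HSP90AB1 and FKBP4 did not: without CpdA 2 h replicate 2 they had adjusted p of 0.061 and 0.12 in limma.

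Between 2 h and 4 h of CpdA, 4 of the 8 genes rose, against 5.21% of all genes, and 0 fell, against 7.2% (12.4% in either direction). They were FKBP5 (log2 difference 0.38, adjusted p = 0.010, limma), HSP90AA1 (0.31, adjusted p = 0.0052, limma), HSP90AB1 (0.29, adjusted p = 0.0081, limma) and STIP1 (0.23, adjusted p = 0.0084, limma). All 4 calls were lost without CpdA 2 h replicate 1, without CpdA 2 h replicate 2 or without CpdA 4 h replicate 2. Between the times of Dex, FKBP5 was the 1 gene called higher, against 4.55% of all genes, and 0 were called lower, against 9.02%. Its fold was over 2, which 0.771% of all genes reached. The other 7 genes differed by −0.14 to 0.10 between the times of Dex. Under a common median per sample the calls over all genes between the times were 866 higher and 760 lower in place of 578 and 1147 for Dex, and 816 and 678 in place of 662 and 915 for CpdA.

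The balance of the competing immunophilins changed in every Dex sample. The ratio of FKBP5 to FKBP4 in RPKM was 0.251 and 0.286 with vehicle, 3.29 and 3.20 after 2 h of Dex, and 9.61 and 9.55 after 4 h. FKBP4 outweighed FKBP5 in the 6 vehicle and CpdA samples, and FKBP5 outweighed FKBP4 in the 4 Dex samples. With CpdA the ratio was 0.229 and 0.228 at 2 h and 0.273 and 0.266 at 4 h. The ratio of HSP90AA1 to HSP90AB1 was 0.476 in both vehicle samples, 0.531 and 0.527 after 2 h of CpdA and 0.534 and 0.538 after 4 h, so that the inducible paralog gained on the constitutive one in all 4 CpdA samples. With Dex it was 0.515 and 0.489 at 2 h and 0.470 and 0.476 at 4 h. These ratios are descriptions of transcript levels and were not tested.

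**Figure D3:**
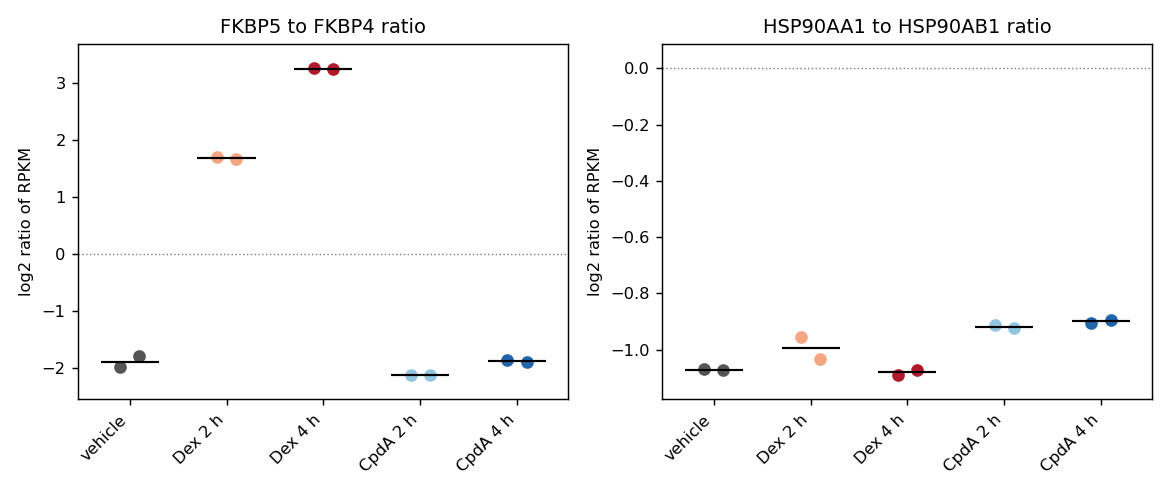
Log2 ratio of RPKM in each sample (points) with the group mean (line), for FKBP5 to FKBP4 (left) and HSP90AA1 to HSP90AB1 (right); the dotted line at 0 marks equal levels. The left ratio crosses 0 in the Dex samples alone, and the right one stays below 0 in all 10 samples and is nearest 0 with CpdA at 4 h.

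The 8 genes together made up 0.301% and 0.322% of the summed RPKM with vehicle and 0.397% and 0.421% after 4 h of CpdA. After 4 h of Dex, where FKBP5 alone was called higher, the share was 0.346% and 0.363%. RPKM is a relative measure, so a rise of one transcript and a fall of the rest cannot be told apart from it.

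The rest of the pathway was read from lists of 63 symbols, of which 61 were in the files and 57 passed the filter. Among these, 2 rose and 2 fell at 2 h of Dex, and 3 rose and 10 fell at 4 h. With CpdA 6 rose and 1 fell at 2 h, and 19 rose and 5 fell at 4 h. These counts depend on single samples: at 4 h of CpdA 13 rose without CpdA 4 h replicate 1 and 12 without replicate 2, with 0 lower in either case, and at 2 h 4 rose without vehicle replicate 2, 4 without CpdA 2 h replicate 1 and 3 without CpdA 2 h replicate 2. At 2 h of Dex 2 rose and 6 fell without vehicle replicate 1 or without either Dex 4 h sample, and at 4 h 9 rose and 11 fell without Dex 4 h replicate 2. With only the 4 samples of the contrast 2 rose and 3 fell at 4 h of Dex, and with a common median per sample 6 rose and 5 fell. Read as shares of all genes tested, calls in either direction were 10.3% and 27.4% with Dex and 6.18% and 20.5% with CpdA. By direction, 4.49% rose and 5.82% fell at 2 h of Dex, and 9.26% and 18.2% at 4 h. With CpdA 1.89% rose and 4.29% fell at 2 h, and 6.76% and 13.8% at 4 h. The counts of each list below are to be read beside these shares.

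Of 22 other HSP90 co-chaperones, 6 rose and 1 fell at 4 h of CpdA. The rises included CHORDC1 by 0.42 on the log2 scale, AHSA1, the activator of the HSP90 ATPase, by 0.38, and TTC4 by 0.37, together with CACYBP (0.25), ST13 (0.21) and DNAJC7 (0.18). AHSA1 went from 73.6 and 75.4 RPKM with vehicle to 96.7 and 97.1 RPKM, and was the one gene of this list called at 2 h (83.3 and 83.1 RPKM, log2 fold change 0.16, adjusted p = 0.030, limma). NUDCD3 fell by 0.15. The median of the list was 0.03, so the rise was carried by a minority of it. With Dex 0 rose and 1 fell at 2 h (TTC4, −0.22), with 1 higher and 3 lower at an unadjusted p under 0.05 in limma, and 1 rose and 1 fell at 4 h (TTC9, 0.30, and RPAP3, −0.22).

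The 14 genes for HSP70, HSP40 and their exchange factors, which hold the receptor before HSP90 does, included the largest changes with CpdA among the 5 pathway lists. At 4 h 8 rose and 1 fell. HSPA1A, the inducible HSP70, went from 1.68 and 1.63 RPKM with vehicle to 12.0 and 13.1 RPKM at 2 h and 20.7 and 24.6 RPKM at 4 h. These are log2 fold changes of 2.85 and 3.69. Its near-identical copy HSPA1B had 2.65 and 3.40, and reads cannot be assigned to one or the other with certainty. DNAJB1, the HSP40 that works with HSP70, rose by 1.52 and 1.90, and HSPH1, an exchange factor, by 0.45 and 1.07. BAG3, another exchange factor, rose by 0.36 and 0.69, and HSPA8, the constitutive HSP70, at 4 h by 0.45. BAG5 fell by 0.21 at 2 h and by 0.22 at 4 h.

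In the same list Dex raised 2 genes at both times, BAG3 by 0.80 and 0.65 and DNAJB1 by 0.48 and 0.55 at 2 h and 4 h. At 4 h 3 genes fell with Dex, HSPH1 (−0.41), BAG2 (−0.34) and BAG5 (−0.19). HSPH1 and BAG2 were thus lower with Dex and higher with CpdA (BAG2 by 0.22 at 4 h) against the same vehicle samples. HSPA1A stayed at 1.45 to 1.67 RPKM in the 4 Dex samples, with log2 fold changes of −0.15 and 0.00 that were not called.

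**Figure D4:**
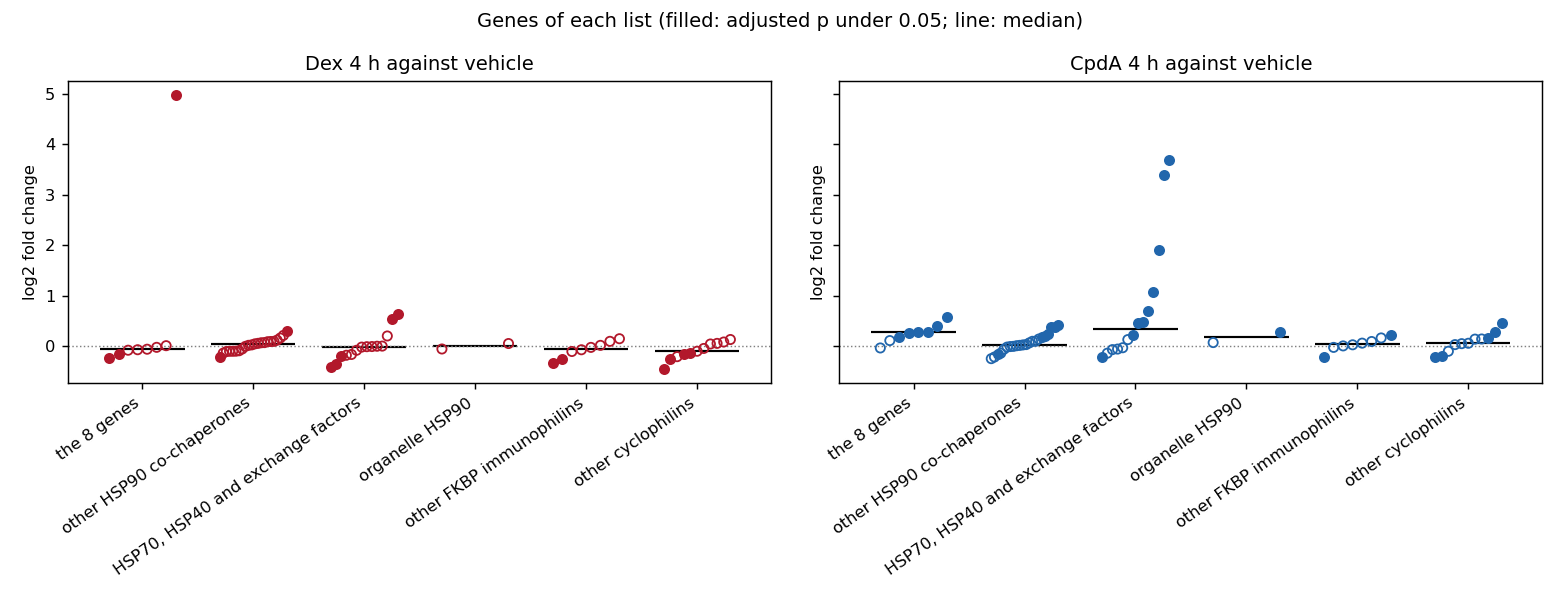
Log2 fold change against vehicle at 4 h of Dex (left) and of CpdA (right) for the 8 genes and the genes of the 5 pathway lists, without the reference lists, sorted within the list; filled points have an adjusted p under 0.05 (limma) and lines are medians. Among these genes FKBP5 is alone near 5 with Dex, and with CpdA the filled points are mostly above 0 for the 8 genes and reach 3.69 in the HSP70 list.

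The organelle HSP90 genes were HSP90B1 of the endoplasmic reticulum and TRAP1 of mitochondria. HSP90B1 rose with CpdA at 4 h (520.2 and 523 RPKM against 439 and 422 RPKM with vehicle, log2 fold change 0.28, adjusted p = 0.0014, limma), and neither gene was called in the other 3 comparisons with vehicle, with 0 at an unadjusted p under 0.05 in limma. Of 8 other FKBP immunophilins, FKBP2 rose (0.23) and FKBP15 fell (−0.22) at 4 h of CpdA, and FKBP14 (−0.34) and FKBP15 (−0.25) fell at 4 h of Dex. At 2 h of either ligand 0 were called (at an unadjusted p under 0.05 in limma, 1 with CpdA and 0 with Dex). Over all genes at 4 h, 20.5% were called in either direction with CpdA and 27.4% with Dex, so these few calls are not read as a trait of the FKBP genes. Of 11 other cyclophilins, 3 rose and 2 fell at 4 h of CpdA, and with Dex 1 fell at 2 h and 4 fell at 4 h. Among them PPIF, the mitochondrial cyclophilin, rose by 0.45 with CpdA and fell by 0.45 with Dex at 4 h, after a fall by 0.47 at 2 h of Dex. Among the organelle HSP90, other FKBP and other cyclophilin genes that passed the filter, the largest change with Dex was that fall of PPIF. It was 0.47 on the log2 scale, against 4.98 for FKBP5.

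As a reference for both ligands, 7 known glucocorticoid targets and 6 known heat shock factor targets that passed the filter were read in the same way. With Dex 6 of the 7 glucocorticoid targets rose at 2 h and 7 at 4 h, among them TSC22D3 (log2 fold changes 5.06 and 5.10), PER1 (4.40 and 4.45) and KLF9 (3.74 and 3.83). Between the times of Dex 1 of the 7 was called higher, ZBTB16. It was listed at 0 in both vehicle samples, and went from 0.0212 and 0 RPKM at 2 h to 0.525 and 0.602 RPKM at 4 h. Of its vehicle and Dex samples, only those at 4 h of Dex reached the 0.5 RPKM of the filter. Its calls at 4 h, also among the 7 above, therefore rest on the samples that let it pass and carry no separate weight. The other 6 differed by −0.21 to 0.29 on the log2 scale between the times and were not called. With CpdA 4 rose and 1 fell at 2 h, against 1.89% and 4.29% of all genes, and 3 rose at 4 h, against 6.76%. DUSP1 led (2.76 and 1.85), and TSC22D3 rose by 0.44 and 0.27. Calls with a fold over 2 numbered 3 of the 7 at 2 h of CpdA and 1 at 4 h. Over all genes they made up 0.488% and 0.889%.

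Of the heat shock factor targets, 2 rose at 2 h of CpdA and 4 at 4 h. HSPA6, a strictly inducible HSP70, had 0.331 and 0.457 RPKM with vehicle. With CpdA it had 11.6 and 13.8 RPKM at 2 h and 43.6 and 54.4 RPKM at 4 h (log2 fold changes 4.70 and 6.64). HSPA6 reached the 0.5 RPKM of the filter in the CpdA samples alone. Its place among these calls therefore rests on the samples that let it pass and carries no separate weight. DNAJB4, an HSP40, went from 8.57 and 10.5 RPKM to 15.1 and 15.3 RPKM at 2 h and 21.4 and 22.8 RPKM at 4 h of CpdA (0.68 and 1.21). HSPD1 rose by 0.43 and HSPE1 by 0.29 at 4 h. HSPD1 and HSPE1 encode the mitochondrial chaperonin and its lid. With Dex DNAJB4 also rose at both times (1.34 and 1.96) and HSPB1 at 4 h (0.39), while HSPA6 stayed at 0.302 to 0.451 RPKM. The transcript of the receptor itself, NR3C1, fell with Dex by 0.56 at 2 h and 0.97 at 4 h on the log2 scale, and with CpdA it was not called (0.22 and 0.06). None of HSF1, HSF2 and HDAC6, listed with the receptor, was called against vehicle in limma. At an unadjusted p under 0.05 in the same fit there was 1 of them, HSF2 at 4 h of Dex (−0.20).

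Among the genes whose pattern over the 10 samples was most like that of FKBP5, by Pearson correlation of log2(RPKM + 0.1) among the 12713 genes, were NUDT16 (r = 0.998), LHX6 (0.997), BAIAP2 (0.997) and EZR (0.996). The points are duplicates of 5 groups, so r describes the group means and has no p. NUDT16, a nudix hydrolase, had means of 4.44 RPKM with vehicle, 14.4 at 2 h and 25.1 at 4 h of Dex. These 4 genes shared with FKBP5 a higher mean at 4 h than at 2 h of Dex and means near vehicle with CpdA. That likeness follows from how they were picked. Most like HSP90AA1 were FTL (r = 0.991), ATP6V1G1 (0.987), HMOX1 (0.983), AHSA1 (0.983) and CEBPG (0.983). HMOX1, heme oxygenase 1, had means of 15.7 RPKM with vehicle, 43.1 at 2 h and 103 at 4 h of CpdA, and 9.62 and 8.21 RPKM with Dex. Of the other members, HSP90AB1 (r = 0.974), FKBP4 (0.959) and STIP1 (0.943) followed HSP90AA1 closely, and PPID did not (0.109).

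Near copies of the members were scarce in the files. HSP90AB4P had 0.165 to 0.301 RPKM, and PTGES3L and the read-through PTGES3L-AARSD1 stayed at or under 0.74 RPKM. How reads shared between HSP90 genes and their other pseudogenes were counted is not given in the sources used here, so the levels of HSP90AA1 and HSP90AB1 carry that uncertainty.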

How the data were processed

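RNA-seq libraries (TruSeq RNA kit, 50-base single-end reads, HiSeq) were aligned by the authors with TopHat2 2.0.13, and transcript abundance was estimated in Partek Genomics Suite 6.6 with default settings; hg19 is the build in the submitters' processing notes. The authors deposited RPKM values per gene symbol for each of the 10 samples. How transcripts were combined into symbols is not given in the sources used here. Read totals are unknown, and relative depth was taken from the RPKM step that 1 read is worth, so no counting interval is given.

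The filter kept the 12713 of 20668 genes that reached 0.5 RPKM in 2 or more samples. Values of log2(RPKM + 0.1) were fitted with limma 3.58.1 (R 4.3.3; 5 group means, variance trend, 5 residual degrees of freedom), with Benjamini-Hochberg adjustment over all genes kept. Fold changes on this scale understate the change of low genes. The 8 genes and the pathway, reference and marker lists were chosen with earlier results of these data known, so no list was tested as a set. Text names all 8 genes, up to 4 called genes with the largest change per list and comparison with vehicle, and a few further called genes chosen after their values were seen. FKBP5L and PPIAL4A, on the lists, had no matching symbol. Motifs were searched with Python 3.11.15 in GRCh37 with GENCODE gene records, and in RefSeq promoters of GRCh38.p14. Alternatives covered pseudocounts, filters, scaling, variance models, samples, the replicate block and each sample left out. Protein sequences were not used. One of the genes most like FKBP5 is not reported here.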

Additional observations from a re-analysis of the deposited data

Results flagged for a closer look

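The effect of a ligand differed between its 2 time points, by the test of 4 h against 2 h itself (limma, 2 samples each), for 5 values of the 8 genes. For Dex it was FKBP5, with a log2 difference of 1.48. For CpdA it was FKBP5 (0.383), HSP90AA1 (0.311), HSP90AB1 (0.292) and STIP1 (0.233), each higher at 4 h in both samples. As given above, these CpdA calls were lost when single CpdA samples were left out. Over all genes 4.55% were called higher between the times of Dex and 5.21% between those of CpdA.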

How the results depend on the processing

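Each of the 64 changes of a member was recomputed under 20 alternatives, 1280 values in all. Of these, 1208 kept their direction where called and their side of the threshold, 61 lost a call, 11 gained one and 0 reversed a called direction. FKBP5 with Dex at both times, and HSP90AA1, HSP90AB1, STIP1 and FKBP4 with CpdA at 4 h, were called under all 20. The count of members called at 2 h of Dex was 2 with quantile normalization and 2 with the replicate block, in place of 1, and at 4 h of Dex it was 1 with quantile normalization, with median scaling, without the variance trend and with only the 4 samples of the contrast, in place of 3. With single samples left out the counts ran from 1 to 1 for Dex at 2 h, 1 to 3 for Dex at 4 h, 0 to 2 for CpdA at 2 h and 4 to 6 for CpdA at 4 h. The same ranges were 2 to 4 for Dex against CpdA at 2 h, 6 to 7 at 4 h, 1 to 1 between the times of Dex and 0 to 5 between the times of CpdA. With a pseudocount of 1 the log2 ratio of FKBP5 to FKBP4 was −1.75 with vehicle, 1.66 and 3.20 at 2 h and 4 h of Dex, and −1.96 and −1.77 at 2 h and 4 h of CpdA, and that of HSP90AA1 to HSP90AB1 with vehicle was −1.07. With a pseudocount of 0.01 the ratio of FKBP5 to FKBP4 at 2 h of CpdA was −2.13. The cause of these changes was not tested. The deviations of same-numbered replicates from their group means correlated by −0.057 to 0.198 over 10 pairs of groups, with 3 of the 10 above 0.1, so the numbers were not taken to pair the samples. With the replicate number as a block, HSP90AB1 was called lower at 2 h of Dex (−0.16, adjusted p = 0.032, limma), and BAG1 for Dex against CpdA at 2 h and FKBP4 between the times of CpdA were called too.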
